A study of Homo sapiens with 24 samples.

Results

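The interferon-stimulated antiviral genes are the genes whose transcription rises when a cell responds to interferon, and 56 of them were followed by name among the 59609 rows of the count table that name a gene. The list was set by gene name, with earlier results of these data known. Transcripts were profiled by 3′ RNA-seq, in which reads come from the end of each polyadenylated transcript, in 2 ER-negative breast cancer cell lines whose genotype is labelled Wild-type. Of these, MDA-MB-231 has a mesenchymal phenotype, while the other, MDA-MB-453, expresses ERBB2. Cells were grown for 5 days with DMSO, the vehicle, with the CDK4/6 inhibitor abemaciclib at 500 nM, with the oestrogen receptor degrader fulvestrant at 5 nM, or with both drugs, called here the combination. There were 3 replicates in each of the 8 groups, 24 libraries in all, and each line stands for itself only, since each was studied once. Levels are given as CPM, the counts scaled to a library of fixed size, after TMM scaling across the 24 libraries, and "called" means an adjusted p below 0.05 in edgeR's quasi-likelihood test with Benjamini-Hochberg adjustment over all genes tested in that comparison.

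Interferons are secreted proteins that bind receptors on the cell surface, where the kinases JAK1 and TYK2 phosphorylate transcription factors such as STAT2. STAT2 and IRF9 are part of a complex that binds the interferon-stimulated response element (ISRE) in the promoters of many of the genes studied here. Their products detect viral RNA or DNA (DDX58, IFIH1, the OAS family), carry the signal onward (IRF7, IRF9, STAT2), attach the ubiquitin-like protein ISG15 to other proteins (UBE2L6, HERC5, TRIM25), or act against viruses directly (the IFIT, IFITM, MX and GBP families and BST2). Cancer cell lines can express such genes without added interferon, and no interferon treatment is named for these samples.

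The libraries held 2873558 to 4158762 counts, and a gene at 0 was set against a floor of 3 counts summed over its group, which is less than 0.30 CPM. Defining markers fitted the labels. VIM and CD44, genes of mesenchymal cells, averaged 1505 and 253 CPM in MDA-MB-231 DMSO and were at 0 in MDA-MB-453 DMSO, whereas FOXA1 and ERBB2 averaged 196 and 243 CPM in MDA-MB-453 DMSO. The 6 blood cell markers summed to 12 counts over all 24 libraries. The mitochondrial share of counts lay between 8.69% and 9.08% in MDA-MB-231 DMSO and between 11.1% and 13.2% with abemaciclib. In MDA-MB-453 it lay between 14.8% and 16.0% with DMSO and between 21.8% and 25.5% with abemaciclib. MKI67, a proliferation gene, was lower with abemaciclib in both lines, with log2 fold changes of -1.45 ± 0.11 (SE) and -7.28 ± 0.22 (adjusted p from edgeR 3.61e-14 and 9.91e-30). The part of these shifts in the results below was not tested.

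The promoter windows of 5 members are shown because they hold matches to the core of the ISRE. With abemaciclib, IFI6, IFITM3 and GBP1 were called higher in MDA-MB-231 and HERC5 lower. OAS3 was called higher in MDA-MB-231 and lower in MDA-MB-453. Each runs from 250 bases before to 50 bases after an annotated start (RefSeq, GRCh38.p14), on the strand of the gene. Capitals mark matches to GAAANNGAAA on either strand, the core of the ISRE, with overlapping matches joined. IFI6, an antiviral membrane protein, is at chr1:27672143-27672442 on the minus strand, IFITM3, which blocks viral entry, at chr11:320811-321110 on the minus strand, and GBP1, a guanylate-binding GTPase, at chr1:89065159-89065458 on the minus strand. OAS3, an oligoadenylate synthetase, is at chr12:112938224-112938523 on the plus strand, and HERC5, the ligase that joins ISG15 to its targets, at chr4:88456869-88457168 on the plus strand.
IFI6: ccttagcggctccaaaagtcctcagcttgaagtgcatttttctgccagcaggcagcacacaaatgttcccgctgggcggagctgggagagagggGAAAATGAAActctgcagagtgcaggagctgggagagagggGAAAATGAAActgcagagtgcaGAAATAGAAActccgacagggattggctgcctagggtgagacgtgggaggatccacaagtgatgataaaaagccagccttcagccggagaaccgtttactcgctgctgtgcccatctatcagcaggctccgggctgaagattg
IFITM3: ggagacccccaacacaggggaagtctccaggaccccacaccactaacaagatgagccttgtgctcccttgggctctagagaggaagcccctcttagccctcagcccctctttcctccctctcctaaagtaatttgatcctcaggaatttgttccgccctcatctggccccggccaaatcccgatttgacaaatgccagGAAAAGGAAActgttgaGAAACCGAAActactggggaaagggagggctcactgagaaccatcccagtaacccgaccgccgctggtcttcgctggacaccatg
GBP1: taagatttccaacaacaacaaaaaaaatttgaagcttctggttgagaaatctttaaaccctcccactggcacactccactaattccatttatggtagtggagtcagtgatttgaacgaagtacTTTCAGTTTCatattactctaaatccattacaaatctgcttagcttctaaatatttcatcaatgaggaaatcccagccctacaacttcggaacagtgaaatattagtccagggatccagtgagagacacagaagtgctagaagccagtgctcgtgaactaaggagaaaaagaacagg
OAS3: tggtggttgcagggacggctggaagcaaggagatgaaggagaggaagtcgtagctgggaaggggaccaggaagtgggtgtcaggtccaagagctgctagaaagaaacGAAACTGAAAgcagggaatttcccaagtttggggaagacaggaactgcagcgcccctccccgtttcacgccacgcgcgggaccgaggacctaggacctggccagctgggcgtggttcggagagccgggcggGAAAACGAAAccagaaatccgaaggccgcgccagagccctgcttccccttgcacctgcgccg
HERC5: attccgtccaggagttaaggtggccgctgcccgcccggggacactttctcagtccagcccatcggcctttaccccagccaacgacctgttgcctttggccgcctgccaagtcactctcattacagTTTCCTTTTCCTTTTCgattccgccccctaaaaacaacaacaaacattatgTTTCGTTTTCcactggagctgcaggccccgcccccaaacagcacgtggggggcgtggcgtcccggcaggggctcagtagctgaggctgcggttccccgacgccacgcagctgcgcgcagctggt

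A promoter window was found for 45 of the 56 members, and 30 of these (66.7%) held the ISRE core in at least 1 window, compared with 4.38% of the 27305 genes with a window. Of the members called higher with abemaciclib in MDA-MB-231, 12 of 19 held it, and of the members tested there and not called, 11 of 17 did. Those shares were 63.2% and 64.7%. UBE2L6, DDX58 and OAS1 are members that rose and whose windows had no match to this pattern. The windows of DDX58 and OAS1 do hold GAAACGAAA, in which the repeats lie closer together than the pattern allows. No match therefore does not mean that a window lacks an ISRE. IFI6 and HERC5 each had 3 matches and moved in opposite directions. A match is a stretch of letters and was not tested as a bound site.

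Before any drug, the lines differed in most members. Summed over the 56 members, the level was 1326 ± 24.9 CPM (SD, n = 3) in MDA-MB-231 DMSO and 635 ± 21.6 CPM in MDA-MB-453 DMSO. At least 10 CPM was reached by 24 members in MDA-MB-231 and by 12 in MDA-MB-453, and 5 and 14 members had no count in the respective DMSO group. Of the 44 members tested between the DMSO groups, 29 were called lower in MDA-MB-453 and 6 higher, with a median log2 difference of -1.71. Among all genes tested, 35.6% were called lower and 34.3% higher, with a median of -0.031. Members without counts in MDA-MB-453 passed the filter through MDA-MB-231 alone, and IFIH1 and USP18 passed it through MDA-MB-453 alone. These counts and the median therefore describe the members tested and do not stand as support. Line and growth medium cannot be told apart in this comparison, nor can fewer expressing cells and less RNA per cell in any comparison of these bulk libraries.

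IFITM3 had the largest log2 difference among the members tested. It was at 273, 272 and 273 CPM in MDA-MB-231 DMSO and at 0 in each of the 12 MDA-MB-453 libraries. Against the floor it was at least 948-fold lower in MDA-MB-453 DMSO. IFI16, a sensor of DNA, was at least 111-fold lower, GBP3 at least 62.6-fold, GBP1 and IFI35 at least 37.4-fold, IFI44 at least 18.4-fold and SAMD9L at least 11.9-fold. Altogether 10 members had no count in any MDA-MB-453 library, namely IFI16, IFITM1, IFITM3, GBP1, GBP3, IFI27, IFI44L, IFI35, RSAD2 and SAMD9L. LGALS3BP, a secreted glycoprotein, was at 54.5, 48.9 and 51.8 CPM in MDA-MB-231 DMSO and at 1.77, 0 and 0.289 CPM in MDA-MB-453 DMSO.

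The members called higher in MDA-MB-453 were BST2, IFIH1, USP18, PARP9, PARP10 and IRF7. BST2, which tethers budding virus particles to the cell, was at 201, 228 and 191 CPM in MDA-MB-453 DMSO and at 29.8, 27.6 and 37.7 CPM in MDA-MB-231 DMSO, and its groups did not overlap (log2 difference 2.71 ± 0.15, adjusted p from edgeR 2.79e-21). IFIH1, a sensor of long viral RNA, was at 8.29, 10.6 and 4.62 CPM against 0.298, 0.864 and 0 CPM. USP18, which removes ISG15 from proteins and dampens the interferon receptor, was at 7.99, 13.6 and 13.0 CPM against 0.595, 1.44 and 1.47 CPM. Both passed the filter through MDA-MB-453 alone, so their values are given as a description. IFI6, OAS3 and DDX58 were not called between the lines, and their 95% intervals for the log2 difference ran from -0.60 to 0.59, from -0.10 to 0.93 and from -0.63 to 0.28. For OAS3 the groups did not overlap, with 17.2, 22.5 and 22.5 CPM in MDA-MB-453 DMSO and 17.0, 17.0 and 12.7 CPM in MDA-MB-231 DMSO.

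**Figure D1:**
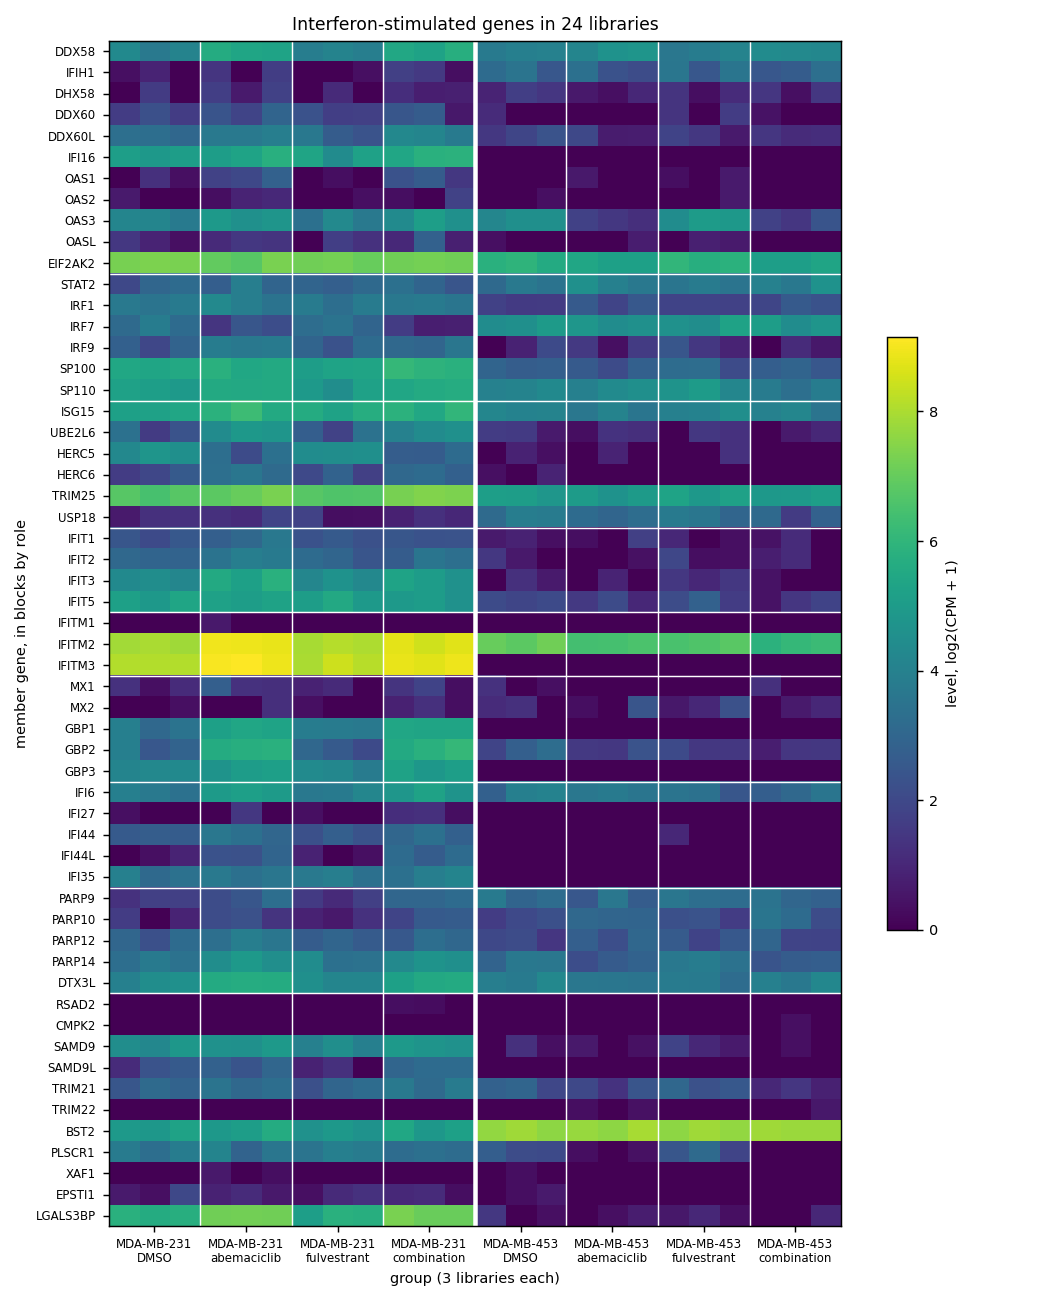
Level of the 56 members in 24 libraries on the log2(CPM + 1) scale, with rows in blocks by role and 3 libraries for each of the 8 groups. Many rows are dark throughout MDA-MB-453, where 10 members had no count in any library, and many rows brighten in the abemaciclib and combination columns of MDA-MB-231, among them the 20 members called higher in both, but also rows such as IFI44 that were not called.

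Abemaciclib raised many members of the list in MDA-MB-231, from sensors to effectors. Of the 42 members tested, 21 were called higher and 2 lower, while 19 were not called, and 14 were not tested. Among all genes tested, 16.9% were called higher and 16.9% lower. The median log2 fold change was 0.80 over the members tested and -0.001 over all genes tested. IFI44L, OAS1, PARP9 and PARP10, low with DMSO, passed the filter only through the groups given abemaciclib. DDX60 and SAMD9L passed it only with the help of those groups. The 21 include IFI44L, OAS1 and PARP9, and the median includes all of these genes. Both numbers therefore describe the members tested and do not stand as support. The summed level of the members was 2247 ± 30.3 CPM (SD, n = 3) with abemaciclib against 1326 ± 24.9 CPM with DMSO, and the groups did not overlap (2212 to 2268 against 1298 to 1345 CPM). IFITM3 and IFITM2 made up 27.6% and 25.5% of that difference and LGALS3BP 9.99%, 63.1% between these 3. In 26 of the members tested every abemaciclib library was above every DMSO library, and in 2 every one was below, against 21.6% and 22.6% of all genes tested.

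Members that act on viruses directly were among those that rose. IFITM3 was at 273, 272 and 273 CPM with DMSO and 528, 566 and 485 CPM with abemaciclib, a log2 fold change of 0.95 ± 0.10 (edgeR adjusted p 2.25e-10). IFITM2, its close relative, went from 237, 252 and 230 CPM to 488, 480 and 455 CPM (0.99 ± 0.09, edgeR adjusted p 2.82e-11). Neither pair of groups overlapped. The sequences of the 2 genes are nearly alike and the handling of reads that fit both was not stated, so the split of reads between them is uncertain. In MDA-MB-453 DMSO, IFITM2 was at 130, 113 and 144 CPM and IFITM3 at 0, so no read was counted as IFITM3 there. Whether IFITM3 reads were counted as IFITM2 was not tested. IFITM1, the third member of the family, had 0 counts with DMSO.

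Each GTPase of the GBP family on the list was called higher, whereas MX1 and MX2 were too low to test. GBP2 was at 14.6, 4.61 and 6.48 CPM with DMSO and 48.8, 52.2 and 55.4 CPM with abemaciclib (log2 fold change 2.61 ± 0.25, edgeR adjusted p 3.89e-11). GBP1 rose from 14.6, 7.49 and 10.3 CPM to 35.7, 42.1 and 38.3 CPM (1.84 ± 0.22, edgeR adjusted p 4.99e-09). GBP3 rose from 16.4, 18.1 and 19.4 CPM to 25.1, 32.6 and 34.6 CPM (0.78 ± 0.21, edgeR adjusted p 0.00335). All 3 genes lie on chromosome 1, and no abemaciclib library overlapped a DMSO library for any of them. MX1, a GTPase often used as a marker of the interferon response, was at 1.49, 0.288 and 1.18 CPM with DMSO and 5.85, 1.48 and 1.33 CPM with abemaciclib, and 1 abemaciclib library stood above the rest.

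Within the IFI6, IFI27 and IFI44 group, 2 of the 4 members tested were called higher. IFI6 was at 14.3, 12.1 and 9.72 CPM with DMSO and 30.6, 34.7 and 30.9 CPM with abemaciclib (log2 fold change 1.42 ± 0.23, edgeR adjusted p 3.89e-06). IFI44L, a member of unsettled function, was at 0, 0.288 and 0.883 CPM and then at 3.90, 3.86 and 6.65 CPM (3.52 ± 0.78, edgeR adjusted p 0.00043), with 4 counts in all over the DMSO libraries. Such a low start makes the size of the IFI44L fold depend on the fit. IFI27 stayed at 1.78 CPM or less in all 12 MDA-MB-231 libraries and was not tested. LGALS3BP, among the other effectors, rose from 54.5, 48.9 and 51.8 CPM to 143, 145 and 142 CPM (1.48 ± 0.14, edgeR adjusted p 1.48e-11), and was the only 1 of 6 tested effectors in that group to be called.

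**Figure D2:**
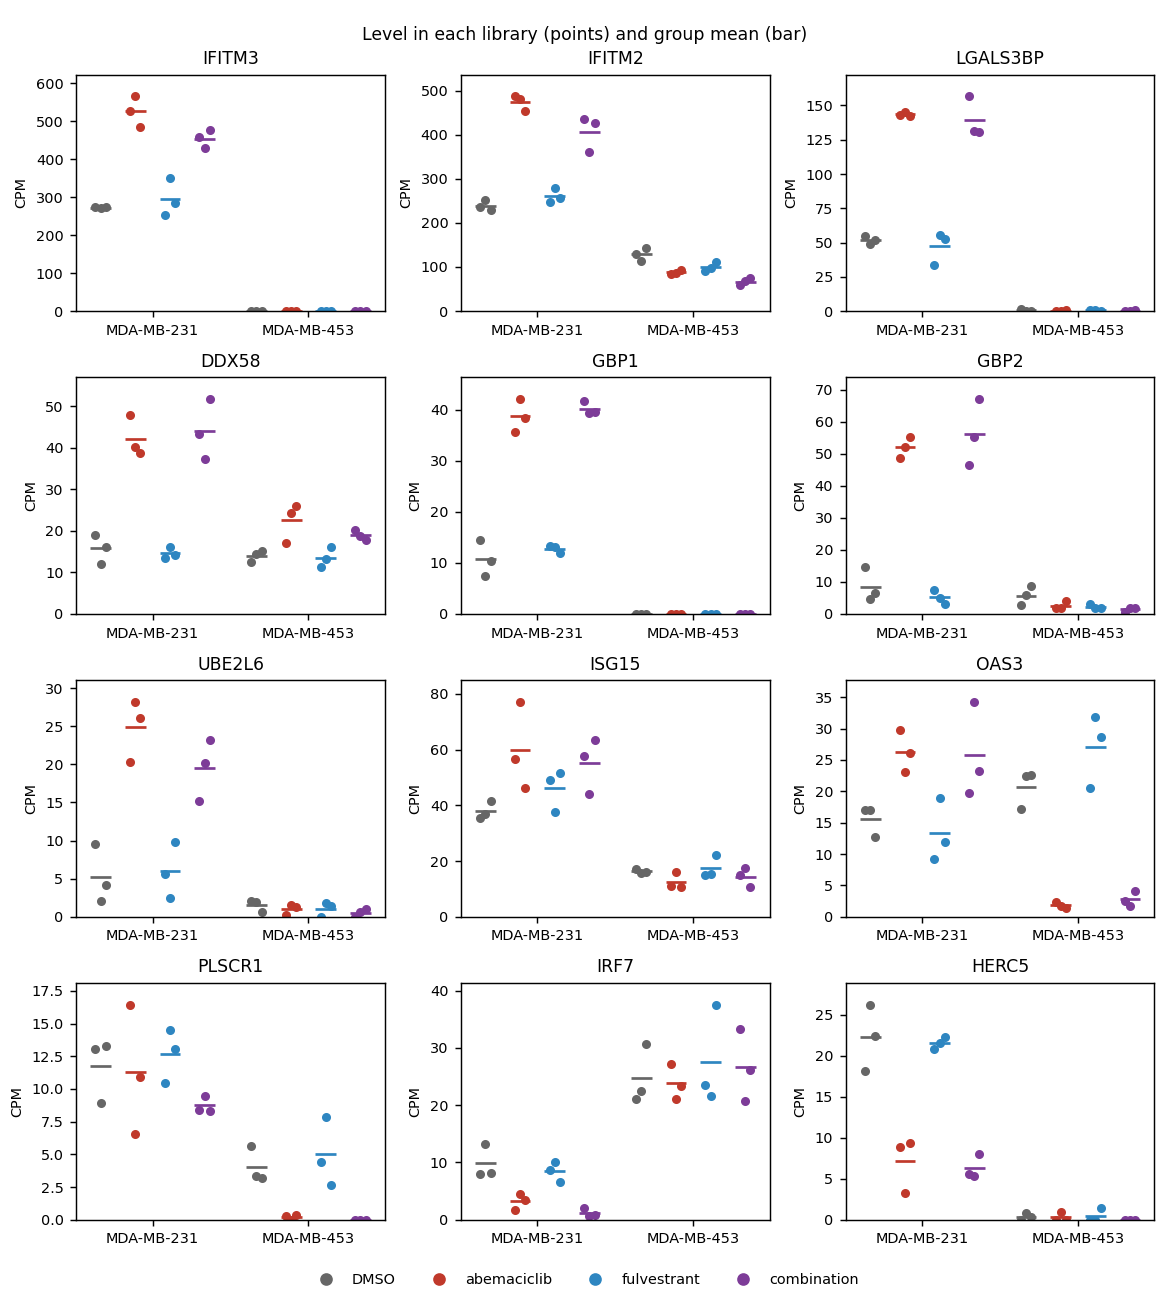
Level in CPM of 12 members in each of 24 libraries (points) with the mean of each group (bars), on linear axes that start at 0. IFITM3, LGALS3BP, GBP1, GBP2 and UBE2L6 rise in MDA-MB-231 with abemaciclib and with the combination and lie at 8.67 CPM or less in MDA-MB-453, while OAS3 and PLSCR1 fall in MDA-MB-453 and IRF7 and HERC5 fall in MDA-MB-231.

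The ISG15 conjugation genes did not move in 1 direction. ISG15 itself was at 35.4, 36.9 and 41.5 CPM with DMSO and 56.6, 77.2 and 46.3 CPM with abemaciclib (log2 fold change 0.66 ± 0.17, edgeR adjusted p 0.00261), and without abemaciclib replicate 2 the value was 0.44 and the adjusted p 0.0694. UBE2L6, the enzyme that carries ISG15 to its ligases, rose from 9.52, 2.02 and 4.12 CPM to 20.3, 28.2 and 26.1 CPM (2.25 ± 0.35, edgeR adjusted p 2.2e-06). HERC6, a relative of HERC5, rose from 2.08, 2.88 and 5.00 CPM to 9.20, 11.0 and 7.99 CPM (1.49 ± 0.44, edgeR adjusted p 0.00745).

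HERC5 fell, from 18.1, 26.2 and 22.4 CPM to 8.92, 3.26 and 9.32 CPM (log2 fold change -1.61 ± 0.29, edgeR adjusted p 2.58e-05), with no overlap between the groups. TRIM25, a ubiquitin ligase that acts on DDX58 and on ISG15 targets, was called higher by 0.41 ± 0.12 (edgeR adjusted p 0.00735). Its call was lost without DMSO replicate 2 and without abemaciclib replicate 3, with adjusted p up to 0.105.

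The RNA and DNA sensors gave 3 calls among 7 members tested, all higher. DDX58, which encodes the RNA sensor RIG-I, rose from 19.1, 12.1 and 16.2 CPM to 47.9, 40.1 and 38.6 CPM (log2 fold change 1.42 ± 0.20, edgeR adjusted p 3.12e-07). OAS3 rose from 17.0, 17.0 and 12.7 CPM to 29.8, 23.1 and 26.1 CPM (0.77 ± 0.25, edgeR adjusted p 0.0134). OAS1, which makes the same kind of second messenger, rose from 0, 1.44 and 0.294 CPM to 2.51, 2.97 and 6.12 CPM (2.67 ± 0.82, edgeR adjusted p 0.00988). The DMSO and abemaciclib libraries did not overlap for these 3 genes. OAS3 was no longer called once DMSO replicate 3 or abemaciclib replicate 1 was left out (adjusted p up to 0.0729), and OAS1 once DMSO replicate 1 or 3 or abemaciclib replicate 3 was (adjusted p up to 0.0875, log2 fold change 2.12 to 4.43 over the alternatives). IFIH1 was at 0.298, 0.864 and 0 CPM and then at 1.67, 0 and 2.13 CPM, too low to test. EIF2AK2, the kinase PKR that halts translation on viral RNA, was at 153, 163 and 157 CPM and then at 123, 107 and 158 CPM, with a log2 difference of -0.28 ± 0.12 (edgeR adjusted p 0.0637). Without abemaciclib replicate 3, the highest abemaciclib library, it was called lower (adjusted p 0.00393), and the difference ran from -0.44 to -0.16 over the alternatives.

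Among the 6 transcription factors, IRF9 and SP110 were called higher and IRF7 lower. IRF9, the DNA-binding part of the interferon complex, rose from 5.95, 2.88 and 6.48 CPM to 13.4, 11.6 and 12.2 CPM (log2 fold change 1.28 ± 0.37, edgeR adjusted p 0.00591), and without DMSO replicate 2 its adjusted p was 0.0532. IRF7, which drives interferon gene transcription, fell from 8.04, 13.2 and 8.24 CPM to 1.67, 4.45 and 3.46 CPM (-1.62 ± 0.46, edgeR adjusted p 0.00512), without overlap. It passed the filter only with the groups not given abemaciclib. SP110, a nuclear body protein, rose by 0.47 ± 0.18 from 36.6, 33.7 and 29.1 CPM to 46.5, 44.8 and 46.0 CPM (edgeR adjusted p 0.034). Its call was lost on leaving out DMSO replicate 2 or 3 or any of the 3 abemaciclib replicates, with adjusted p up to 0.135. STAT2 was at 2.98, 7.20 and 8.24 CPM and then 5.57, 14.2 and 6.65 CPM, and the groups overlapped (0.52 ± 0.42, edgeR adjusted p 0.365).

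Of the 5 genes in the PARP and DTX3L group, 3 were called higher and none lower. DTX3L, a ubiquitin ligase that pairs with PARP9, rose from 14.9, 21.6 and 23.3 CPM to 46.8, 50.1 and 47.9 CPM (log2 fold change 1.28 ± 0.19, edgeR adjusted p 8.31e-07). PARP9 rose from 1.49, 2.30 and 2.35 CPM to 3.34, 4.45 and 8.78 CPM (1.42 ± 0.53, edgeR adjusted p 0.0344), and lost its call without any 1 of the 3 DMSO replicates or abemaciclib replicate 3 (adjusted p up to 0.277, log2 fold change 0.92 to 1.68 over the alternatives). It passed the filter only through the groups given abemaciclib, so its values are given as a description. PARP14, a mono-ADP-ribosyltransferase, rose from 8.93, 12.4 and 10.0 CPM to 21.5, 29.4 and 22.1 CPM (1.22 ± 0.27, edgeR adjusted p 0.000374). PARP9 and DTX3L are neighbours on chromosome 3 whose exons overlap on opposite strands, and whether counting used the strand was not stated, so reads from the shared stretch cannot be assigned to either. That stretch lies at the start of both genes, whereas 3′ reads come from the end of a transcript. How many reads came from it was not tested.

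In the IFIT family, whose products bind viral RNA, IFIT3 alone was called among 4 members tested. IFIT3 rose from 19.3, 21.3 and 17.4 CPM to 45.7, 35.9 and 54.6 CPM (log2 fold change 1.24 ± 0.21, edgeR adjusted p 6.11e-06). IFIT1 was at 4.46, 3.17 and 4.71 CPM and then at 5.85, 7.42 and 11.7 CPM, without overlap but short of the threshold (1.02 ± 0.44, edgeR adjusted p 0.0686). IFIT5 differed by 0.05 ± 0.19. BST2 was at 29.8, 27.6 and 37.7 CPM and then at 28.4, 33.2 and 49.0 CPM, and the 95% interval of its log2 fold change ran from -0.17 to 0.61. In all, 21 members, among them ISG15, IRF9, OAS1, TRIM25, IFIT3, EIF2AK2 and SP110, overlap in their exons with another gene on the opposite strand, and 11, among them DDX58, GBP2, GBP3, IFI6 and IFITM2, with another gene on the same strand. Their counts are uncertain to that extent, the latter however strand was used. Whether the overlaps lie where 3′ reads fall was not tested.

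The genes that make, receive and pass on interferon were looked at beside the members. The 21 interferon genes had 0 counts in the 12 MDA-MB-231 libraries and 2 counts in the 12 MDA-MB-453 libraries, both of IFNL1, so the level of interferon transcripts could not be measured at this depth in either line. Of the 28 other pathway genes tested in MDA-MB-231, 4 were called higher and 4 lower with abemaciclib, 14.3% each way, which is under the 16.9% each way of all genes tested. For JAK1, TYK2, IFNAR1, IFNAR2 and IRF3 the log2 fold changes were 0.18, -0.04, 0.22, 0.16 and 0.01, none of them called. STING1, the adaptor for cytosolic DNA, was called higher (1.16 ± 0.29, edgeR adjusted p 0.00128), from 8.73 to 19.5 CPM on average, and MAVS, the adaptor for DDX58, rose by 0.32 ± 0.11 (edgeR adjusted p 0.0183). CGAS, the enzyme that signals to STING1, named after its value was seen, fell by 1.14 on the log2 scale, from 38.1 to 17.1 CPM on average (edgeR adjusted p 1.4e-05). UBA7, the enzyme that activates ISG15, also named after the fact, went from 2 counts over the DMSO libraries to 36 counts over the abemaciclib libraries.

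**Figure D3:**
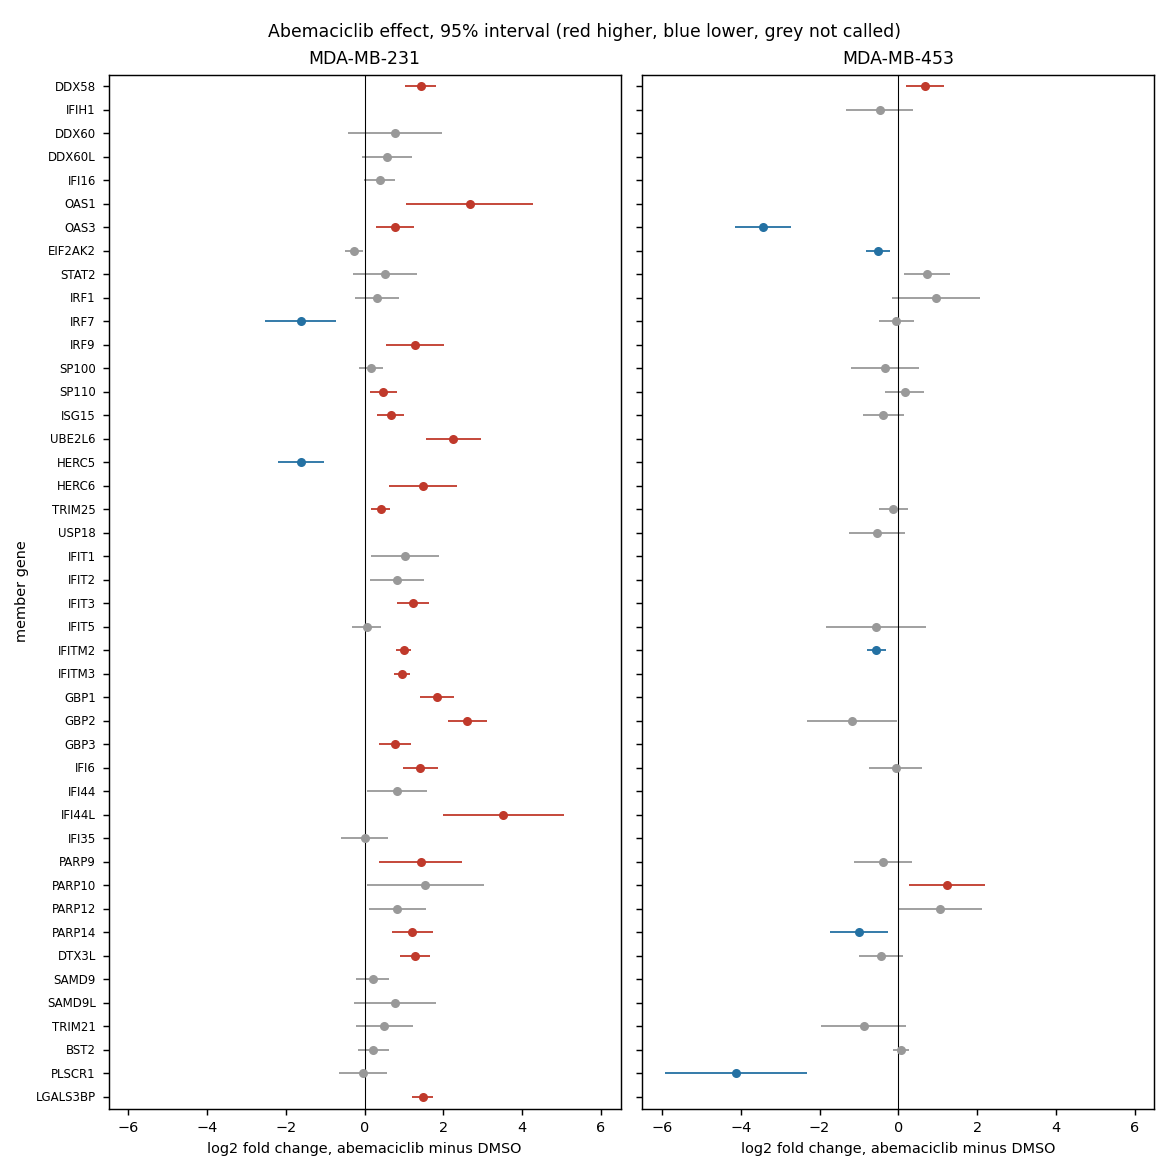
Log2 fold change of abemaciclib against DMSO with its 95% interval for each member tested in MDA-MB-231 (left, 42 members) and in MDA-MB-453 (right, 24 members), where a row without a point was not tested in that line. Red points are members called higher, blue lower and grey not called, with 21 red and 2 blue on the left and 2 red and 5 blue on the right.

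At the same dose fewer members were tested and called in MDA-MB-453, most of them lower. Of the 24 members tested there, 5 were called lower and 2 higher, 17 were not called, and 32 were not tested. Among all genes tested, 19.4% were called lower and 16.6% higher, so the members' shares of 20.8% lower and 8.33% higher were near or under the background. The median log2 fold change was -0.38 over the members tested and -0.002 over all genes tested. The summed level was 554 ± 41.9 CPM (SD, n = 3) with abemaciclib and 635 ± 21.6 CPM with DMSO, and the groups did not overlap (514 to 597 against 611 to 654 CPM). The largest falls in CPM were those of IFITM2, OAS3 and EIF2AK2, while BST2 and DDX58 were higher on average. The sum therefore does not describe a fall of the whole list. Without abemaciclib replicate 2 the number of members called was 4, all lower.

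OAS3 fell from 17.2, 22.5 and 22.5 CPM with DMSO to 2.40, 1.80 and 1.34 CPM with abemaciclib (log2 fold change -3.44 ± 0.36, edgeR adjusted p 9.05e-11). PLSCR1, a lipid scramblase with antiviral activity, had 42 counts over the DMSO libraries and 2 over the abemaciclib libraries, which is 20.2-fold lower with a 95% counting interval of 5.26 to 173. IFITM2 fell from 130, 113 and 144 CPM to 83.6, 85.4 and 94.2 CPM (-0.56 ± 0.12, edgeR adjusted p 0.000234). OAS3 and PLSCR1 passed the filter in this line only with the groups not given abemaciclib. No library with abemaciclib overlapped a DMSO library for OAS3, PLSCR1 and IFITM2. EIF2AK2 fell from 55.3, 60.2 and 47.1 CPM to 41.9, 35.5 and 35.4 CPM (-0.53 ± 0.15, edgeR adjusted p 0.00582), also without overlap. PARP14 fell by 1.00 ± 0.37 on the log2 scale (edgeR adjusted p 0.0322), and it was no longer called when DMSO replicate 2 or 3 or abemaciclib replicate 1 or 2 was left out, with no filter on low counts, or with only the groups compared in the fit (adjusted p up to 0.142).

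DDX58 and PARP10 were the 2 members called higher in MDA-MB-453, and neither call was firm. DDX58 was at 12.4, 14.4 and 15.0 CPM with DMSO and 17.1, 24.4 and 26.1 CPM with abemaciclib (log2 fold change 0.68 ± 0.24, edgeR adjusted p 0.0269), without overlap. Its call was lost on library totals without TMM scaling and without DMSO replicate 1 or 2 or abemaciclib replicate 2 or 3 (log2 fold change 0.55 to 0.85, adjusted p up to 0.121). PARP10 was at 2.07, 3.05 and 3.76 CPM and then at 7.48, 6.91 and 6.68 CPM (1.23 ± 0.49, edgeR adjusted p 0.0439), and its call was lost in 9 of 13 alternatives, among them each of the 6 in which 1 library was left out (adjusted p up to 0.152).

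Several members that rose in MDA-MB-231 were at or near 0 in MDA-MB-453. IFITM3 and GBP1 had no counts, and LGALS3BP was at 0, 0.301 and 0.668 CPM with abemaciclib. ISG15 was at 17.2, 15.8 and 16.2 CPM with DMSO and 11.2, 15.9 and 10.7 CPM with abemaciclib (log2 difference -0.38 ± 0.27, edgeR adjusted p 0.287). IFI6 was at 5.92, 14.4 and 15.6 CPM and then at 11.5, 12.3 and 10.7 CPM, with a 95% interval of -0.74 to 0.60. BST2 was at 201, 228 and 191 CPM and then at 213, 192 and 249 CPM, with an interval of -0.13 to 0.26. IRF7 was at 21.0, 22.5 and 30.6 CPM and then at 27.2, 21.0 and 23.4 CPM (-0.05 ± 0.23), and IFIH1 at 8.29, 10.6 and 4.62 CPM and then at 9.35, 3.91 and 3.34 CPM (-0.48 ± 0.43). STAT2 was at 7.69, 11.9 and 10.1 CPM and then at 23.0, 14.7 and 11.7 CPM (0.73 ± 0.30, edgeR adjusted p 0.0506). It was called in 4 of 13 alternatives, with DESeq2 size factors, without mitochondrial genes, and without DMSO replicate 2 or abemaciclib replicate 3, and its log2 difference ran from 0.41 to 0.92 over all of them. Of the 22 other pathway genes tested in this line, 3 were called higher and 5 lower, and these shares of 13.6% and 22.7% were near the 16.6% and 19.4% of all genes tested. STING1 had 2 counts with DMSO and 0 with abemaciclib.

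The difference between the 2 abemaciclib effects was tested in 1 fit over both lines. It could be tested for 22 members, those that passed the filter in both lines, and 11 differed. The effect was lower in MDA-MB-453 for 10 members and higher for 1, IRF7, against 17.5% and 9.65% of all genes tested. The median difference was -0.70 for the members and -0.057 for all genes tested. OAS3 differed by -4.24 ± 0.45 (edgeR adjusted p 2.17e-10), PLSCR1 by -4.10 ± 0.89 (edgeR adjusted p 0.000395) and GBP2 by -3.83 ± 0.54 (edgeR adjusted p 2e-07). In MDA-MB-453 OAS3, PLSCR1 and GBP2 passed the filter only with the groups not given abemaciclib, as did IRF7 in MDA-MB-231. PARP9 passed it in MDA-MB-231 only through the groups given abemaciclib. Their values, and the counts and median that include them, therefore describe the members tested and do not stand as support. OAS3, IFITM2 and PARP14 were called in opposite directions in the lines, higher in MDA-MB-231 and lower in MDA-MB-453. DDX58, called higher in both lines, had an effect that was lower in MDA-MB-453 by 0.77 ± 0.31, short of the threshold (edgeR adjusted p 0.0577). That difference was called in 3 of 19 alternatives, without TMM scaling, without MDA-MB-231 DMSO replicate 1 and without MDA-MB-453 abemaciclib replicate 3 (adjusted p 0.0318 to 0.176 over all 19). The other 20 members tested in MDA-MB-231 alone, IFITM3, GBP1 and UBE2L6 among them, were too low in MDA-MB-453 to compare.

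**Figure D4:**
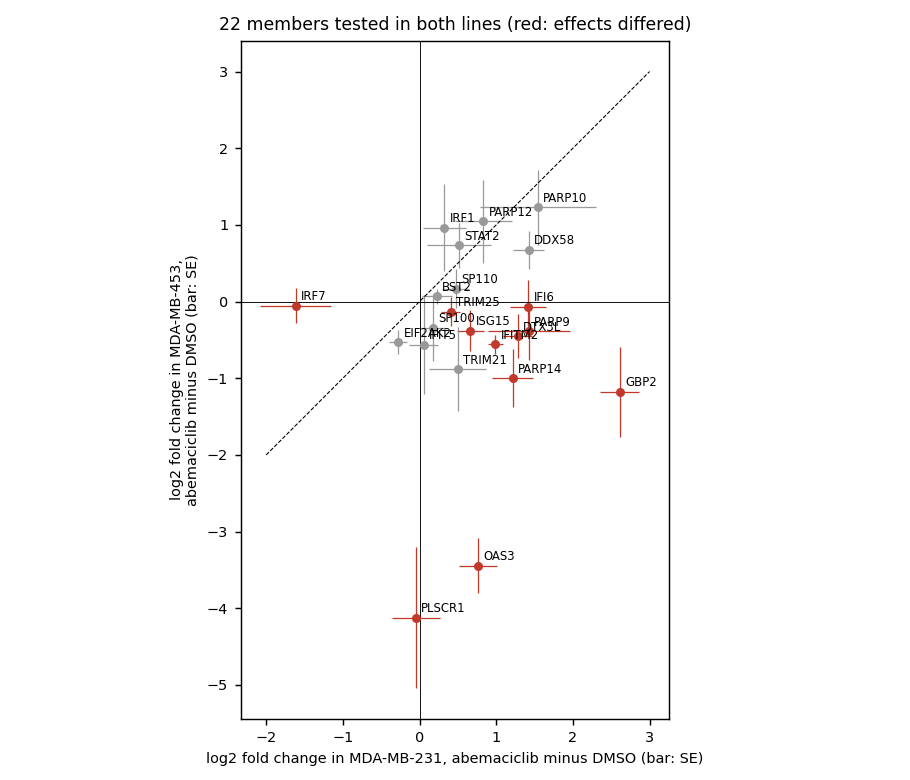
Log2 fold change of abemaciclib against DMSO in MDA-MB-231 (horizontal) and in MDA-MB-453 (vertical) for the 22 members tested in both lines, with bars of 1 SE and the diagonal of equal effects dashed. Red marks the 11 members whose effects differed, 10 of which lie below the diagonal, with OAS3, PLSCR1 and GBP2 farthest from it, and IRF7 lies above it.

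Fulvestrant alone called no member in either line. In MDA-MB-231, 42 members were tested and 0 were called higher or lower, as were 0% and 0% of all genes, and 2 members had an unadjusted p under 0.05 (smallest adjusted p 0.451 by edgeR). DESeq2 called none either. IFITM3 was at 254, 350 and 284 CPM, against 273, 272 and 273 CPM with DMSO, and the 95% interval of its log2 fold change was -0.08 to 0.31. In MDA-MB-453, 24 members were tested and 0 were called, against 1.01% of all genes higher and 0.397% lower, and 3 members had an unadjusted p under 0.05 (smallest adjusted p 0.141 by edgeR), with 0 called by DESeq2. That smallest value belonged to IFITM2, at 90.2, 98.4 and 112 CPM against 130, 113 and 144 CPM with DMSO (-0.35 ± 0.12). Leaving out fulvestrant replicate 3 gave 1 call.

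With the combination, MDA-MB-231 showed the rise seen with abemaciclib. The comparisons share the DMSO libraries, so their values are given side by side. Of 42 members tested, 24 were called higher and 2 lower than with DMSO, against 17% and 18.3% of all genes tested. The 24 include IFI44L, OAS1, PARP9 and PARP10, low with DMSO, which passed the filter only through the groups given abemaciclib. With any 1 of the libraries removed, 20 to 23 members were called. Of the 21 members called higher with abemaciclib, 20 were called higher with the combination, the exception being IRF9 at 7.62, 6.95 and 11.1 CPM (log2 fold change 0.75 ± 0.38, edgeR adjusted p 0.122). The share of all genes called in both comparisons was not counted, so the 20 is a description and does not set the members apart. The largest changes were IFI44L at 4.08 ± 0.76 (3.52 with abemaciclib), IRF7 at -3.04 ± 0.52 (-1.62) and GBP2 at 2.72 ± 0.25 (2.61), with edgeR adjusted p of 3.27e-05, 8.88e-06 and 7.79e-12. DDX60L, IFI16, SP100 and PARP10 were called with the combination only, and whether they differed from abemaciclib alone is given by the next comparison.

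Between the combination and abemaciclib alone, no member was called in either line. In MDA-MB-231, 0 of 42 were called, against 0.00884% of all genes higher and 0.0177% lower, although 7 members had an unadjusted p under 0.05 (smallest adjusted p 0.321 by edgeR). The 95% interval of the log2 difference was -0.29 to 0.51 for GBP2, -0.29 to 0.21 for LGALS3BP and -0.29 to 0.42 for DDX58. IFITM3 was at 458, 429 and 476 CPM with the combination, below all 3 abemaciclib libraries, with a log2 difference of -0.21 ± 0.10 and an interval of -0.40 to -0.02 before adjustment (edgeR adjusted p 0.436). IRF7 was at 2.10, 0.695 and 0.757 CPM with the combination, with a log2 difference of -1.42 ± 0.57 (edgeR adjusted p 0.373). In MDA-MB-453, 0 of 24 were called, against 1.25% of all genes higher and 1.21% lower, with 2 members at an unadjusted p under 0.05 (smallest adjusted p 0.114 by edgeR). DESeq2 called 0 members in both of these comparisons.

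In MDA-MB-453 the combination lowered 8 of 24 members tested and raised 2 against the shared DMSO libraries, beside 20% and 17.6% of all genes tested. The 8 include PLSCR1, OAS3, TRIM21 and GBP2, which passed the filter only with the groups not given abemaciclib. The 3 largest changes were those of PLSCR1, OAS3 and TRIM21. PLSCR1 went from 42 counts over the DMSO libraries to 0, at least 13.6-fold lower. OAS3 was at 2.45, 1.75 and 4.14 CPM (log2 fold change -2.84 ± 0.34, edgeR adjusted p 2.29e-09), all below the DMSO libraries. TRIM21, an intracellular antibody receptor, was at 1.05, 1.75 and 0.776 CPM against 6.21, 6.94 and 2.89 CPM (-2.13 ± 0.62, edgeR adjusted p 0.00545). IFITM2 fell by 0.92 ± 0.12 on the log2 scale, to 58.1, 67.8 and 74.8 CPM. All 5 members called lower with abemaciclib were called lower here too, and the share of all genes called in both was not counted. Without DMSO replicate 3 the number of calls was 6 in place of 10.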

How the data were processed

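Both lines were profiled by 3′ RNA-seq (QuantSeq forward, single-end) with 3 replicates in each of 8 groups. The authors trimmed reads, aligned them with STAR to hg38 and counted them per GENCODE gene with featureCounts, and the deposited values are raw read counts. Whether strand was used, and how multi-mapping reads, PCR copies and molecular identifiers were treated, is not given in the sources used here. Counting intervals and floors cover counting error only.

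All models used edgeR 4.0.16 in R 4.3.3. Genes passed filterByExpr, libraries were scaled by TMM, and quasi-likelihood models were fitted to the whole table, within each line (12 libraries) for drug comparisons and over all 24 libraries for comparisons between lines. Genes were called at an adjusted p below 0.05 (Benjamini-Hochberg over all genes tested, 2-sided). An SE is the log2 fold change over the square root of the F statistic, and an interval is ± 1.96 SE. The 2 abemaciclib effects were compared for genes that passed the filter in both lines. For a gene at 0 the floor was 3 counts summed over its group. The model was tested on simulated data before use.

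The members, their role groups and the pathway list were chosen with earlier results of these data known. Per-library values are given for a fixed set of members and, in each role group, for up to 3 members with the largest absolute change among those called with abemaciclib and at 5 CPM or more in some group of that line. In other comparisons, called members are named where 5 or fewer, otherwise the 3 with the largest change. A gene named outside this rule is marked as such or serves as an example of a count.

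Replicate numbers come from the labels, and same-numbered libraries did not deviate together (mean correlation -0.011 for MDA-MB-231, -0.002 for MDA-MB-453). Replicates differed by more than sampling noise in every group (chi-square per degree of freedom 2.64 to 8.65), so none was merged. Alternatives were DESeq2 1.42.0, DESeq2 size factors, no TMM, no filter, only the groups compared, a replicate block, no mitochondrial genes, and leaving out each library. Promoter windows are RefSeq sequences (GRCh38.p14), and overlaps of exons were taken from GENCODE v44, not the release used for counting. DDX58 is named RIGI there.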

Additional observations from a re-analysis of the deposited data

Results flagged for a closer look

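The effect of abemaciclib differed between the lines for 11 members, by edgeR's quasi-likelihood test of the difference itself (MDA-MB-453 minus MDA-MB-231, log2 scale, adjusted over all genes tested in both lines). The differences were -4.24 for OAS3, -4.10 for PLSCR1, -3.83 for GBP2, -2.24 for PARP14, -1.84 for PARP9, -1.75 for DTX3L, -1.57 for IFITM2, -1.51 for IFI6, -1.07 for ISG15, -0.56 for TRIM25 and 1.54 for IRF7. The calls for PARP9 and TRIM25 were lost in 5 and 6 of 19 alternatives, and that for IRF7 without MDA-MB-231 abemaciclib replicate 1 (adjusted p 0.0502). OAS3, PLSCR1, GBP2, PARP14, DTX3L, IFITM2, IFI6 and ISG15 kept their calls in all 19, although PLSCR1 had only 2 counts with abemaciclib in MDA-MB-453. The filter was passed by OAS3, PLSCR1 and GBP2 in MDA-MB-453, and by IRF7 in MDA-MB-231, only with the groups not given abemaciclib. PARP9 passed it in MDA-MB-231 only through the groups given abemaciclib. Their values are given as a description.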

How the results depend on the processing

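Under DESeq2, DESeq2 size factors, no TMM scaling, no filter, only the groups compared, a replicate block and no mitochondrial genes, each count of members called stayed within 1.5 times its value. The block on replicate number gave 32, 23, 6, 25, 10 and 11 calls for the lines under DMSO, abemaciclib in MDA-MB-231 and MDA-MB-453, the combination in each, and the difference of effects, and 0 for the other comparisons. Only 3 and 4 of 12 libraries correlated best with their own number. Leaving out 1 library gave 32 to 36 calls between the DMSO groups, 19 to 22 and 4 to 6 for abemaciclib in MDA-MB-231 and MDA-MB-453, 20 to 23 and 6 to 8 for the combination, 0 to 0 and 0 to 1 for fulvestrant, 0 to 0 for the combination against abemaciclib, and 9 to 12 for the difference. Without TMM scaling no member was called higher in MDA-MB-453 with abemaciclib and 5 were lower, and among all genes 13.3% were higher and 22.3% lower in place of 16.6% and 19.4%. That scaling shifted the median difference of effects over all genes to -0.116. For members called, 967 of 1062 alternatives kept the call, 95 lost it and 0 reversed, and for members not called, 13 of 1061 gained one. The causes of these changes were not tested. Members under about 1 CPM rest on few counts, and 12 could not be tested in either line.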
